A study of Mus musculus with 20 samples.

Results

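The 35 genes described here encode the enzymes and carriers that take glucose to lactate, together with genes known to respond to low oxygen. They were chosen by name for these roles, as a mark of low oxygen inside growing aggregates, and the rule uses no measured value. The list was nonetheless drawn up with earlier results of these data known, so its contrasts with all genes are a description. Each symbol was matched to 1 Ensembl identifier among the 55573 in the deposited table, of which 33860 had a nonzero value in at least 1 library. All 35 had a nonzero value, and all 35 also passed the filter on low counts in the test across days.

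In glycolysis, glucose enters the cell through carriers of the Slc2a family, is trapped and rearranged as hexose phosphates, split into triose phosphates and turned into pyruvate, which is either oxidised in mitochondria or reduced to lactate and exported. When oxygen is plentiful, prolyl hydroxylases of the Egln family mark the alpha subunits of hypoxia inducible factor (HIF) for destruction. When oxygen is scarce, the alpha subunits persist, pair with the beta subunit Arnt and bind short ACGTG or GCGTG elements near genes for glycolysis, blood vessel growth, collagen modification and the control of mitochondria. HIF1A is therefore controlled largely at the protein level, and the RNA level of Hif1a is not a readout of HIF activity.

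RNA-seq had been made from embryoid body (EB) cultures, aggregates in which pluripotent stem cells differentiate, of 4 induced pluripotent stem cell (iPSC) lines. The groups were WT and Nox4-/-, with 2 clonal lines each: WT#1-4 and WT#20D-17 were wild type, and Nox4-/- #5-8 and Nox4-/- #5-23 lacked the hydrogen peroxide producing NADPH oxidase Nox4. Each line had 1 library on day 0, 3, 5, 7 and 14, 20 libraries in all, with totals between 20294968 and 27708023 counts (median 23878854). Every line had been reprogrammed from embryonic fibroblasts with retroviral Oct4, Sox2, Klf4 and c-Myc, kept on fibroblast feeder cells with leukemia inhibitory factor, and aggregated in hanging drops without that factor for 3 days before plating on gelatin. The protocol in the labels counts days of plated culture, from 0 to 10, and the titles run to day 14. For its embryonic stem cells the study calls undifferentiated cells day 0, so whether day 0 of these iPSC libraries came before or after the hanging drop was not settled. No treatment was added and oxygen was not measured in these libraries, and WT#20D-17 does not appear among the lines that the study names.

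The targeted gene and markers of other cell types were examined first. Nox4 had 7, 22, 21, 12 and 3 counts in WT#1-4 over the 5 days and 64, 165, 188, 203 and 56 counts in WT#20D-17. It had 0, 2, 0, 1 and 0 counts in Nox4-/- #5-8 and 0 counts in each of the 5 libraries of Nox4-/- #5-23. Nox4 was thus at or below 2 counts in every library labelled Nox4-/-, and above that in every WT library.

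The 6 pluripotency markers (Pou5f1, Sox2, Nanog, Zfp42, Esrrb, Dppa5a) summed to 5794 CPM (counts scaled to library size, with factors from the trimmed mean of M values) on day 0 and 1279 CPM on day 14 in WT#1-4. They went from 2778 to 77.7 CPM in WT#20D-17, from 3236 to 1971 CPM in Nox4-/- #5-8 and from 4596 to 3815 CPM in Nox4-/- #5-23. Pou5f1 had the highest CPM of the 6 on average over the 20 libraries, and reads from the retroviral Oct4 cannot be separated from it here. Between the WT lines all 6 markers were called over all days, 5 higher and 1 lower in WT#20D-17 (median log2 difference 7.43), although its sums were smaller. Between 1 and 3 of the 6 were at 0 in each library of the other lines, and 0 of them in WT#20D-17. The 5 libraries of WT#20D-17 stood apart: the 4 visceral endoderm markers (Afp, Ttr, Apoa1, Apob) summed to 105 to 3100 CPM in them and to at most 3.72 CPM in the other 15 libraries, with all 4 at 0 on day 0 of WT#1-4 and of Nox4-/- #5-8. The sum of the 8 fibroblast markers, of which Col3a1 had the highest average, went in WT#20D-17 from 25.5 CPM on day 0 to 3031 CPM on day 14, and lay between 19.6 and 406 CPM in the other lines. The 4 neural markers, with Stmn2 highest on average, summed to at most 103 CPM in WT#20D-17 and to 451 to 1348 CPM elsewhere. The 4 cardiac muscle markers, with Actc1 highest on average, went from 4.43 to 116 CPM between days 0 and 14 in WT#20D-17 and from 0.114 to 6.05 CPM in WT#1-4, from 0.160 to 7.70 CPM in Nox4-/- #5-8 and from 0.0743 to 1.20 CPM in Nox4-/- #5-23. Of the 4, 3 were called higher on day 14 in the fit over 4 lines, as were 3 of the 4 visceral endoderm markers. In these bulk libraries, fewer cells of a type and less RNA per cell cannot be told apart. The part of cell composition in the values below was not tested, and counts are given with and without WT#20D-17.

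Short sequences upstream of the genes were read because many of the members are known as HIF targets. Of the 35 genes, 33 were in the RefSeq promoter table (build GRCm38.p6), all but Slc2a3 and Ndrg1. In the 250 bases before an annotated start, 20 of the 33 held ACGTG and 22 held GCGTG on either strand, and 30 held at least 1 of them. Among the 27025 genes of the table the shares were 18.5% for ACGTG, 30.9% for GCGTG and 41.5% for either. A gene was counted when any of its annotated starts had a match. Genes with more starts had more room for a match, and the shares were not adjusted for that. On the other strand the motifs read CACGT and CACGC, so matches can overlap, as in CACGTG, which holds ACGTG on both strands. Written 5′ to 3′ on the strand of the gene are 120 bases each for 4 genes on which the results turn, those with a motif and the smallest adjusted p across days among the genes given library by library, with every ACGTG or GCGTG match, or its reverse complement, in capitals.
Egln3, chr12:54204005-54204124, minus strand: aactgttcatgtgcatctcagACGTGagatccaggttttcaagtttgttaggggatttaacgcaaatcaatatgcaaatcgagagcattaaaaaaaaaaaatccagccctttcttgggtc
Vegfa, chr17:46025294-46025413, minus strand: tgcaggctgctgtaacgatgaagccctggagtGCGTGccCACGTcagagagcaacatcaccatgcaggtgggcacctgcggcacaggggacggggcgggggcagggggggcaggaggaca
Bnip3, chr7:138909527-138909646, minus strand: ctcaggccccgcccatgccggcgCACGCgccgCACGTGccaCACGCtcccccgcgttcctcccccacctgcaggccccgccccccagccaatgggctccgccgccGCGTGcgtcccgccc
Adm, chr7:110627517-110627636, plus strand: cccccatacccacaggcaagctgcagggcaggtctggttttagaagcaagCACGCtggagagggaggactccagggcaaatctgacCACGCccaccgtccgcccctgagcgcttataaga
The Bnip3 window, ending 21 bases before the annotated start, held 5 matches and the Adm window 2. The Egln3 match began 229 bases before the start. The Vegfa matches lay before an internal start, and that window overlapped a coding exon of the gene, while the 250 bases before the first annotated Vegfa start held neither motif. A match of letters is a description of the sequence, and binding was not measured.

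The day course was fitted over the 20 libraries with line and day as terms. The median change of the 35 members lay above that of all genes on every later day, and no test of the group was run. Hif1a was lower than on day 0 in all 4 lines on days 3 and 5. By edgeR's quasi-likelihood test at an adjusted p under 0.01 over all 18474 genes tested, 23 of the 35 members changed on at least 1 day, against 17.3% of all genes. On day 3, 4 members were higher than on day 0 (Pgk1, Bnip3, Egln3 and P4ha1), where 0.157% of all genes were. The number of higher members was 16 on day 5 (2.01% of all genes), 20 on day 7 (6.21%) and 24 on day 14 (14.3%). No member was lower on day 14, where 13.5% of all genes were lower. The median log2 fold change over day 0 of the 35 members was 1.02, 1.22, 1.32 and 1.52 on days 3, 5, 7 and 14, and the median of all genes tested lay between -0.03 and 0.04.

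**Figure D1:**
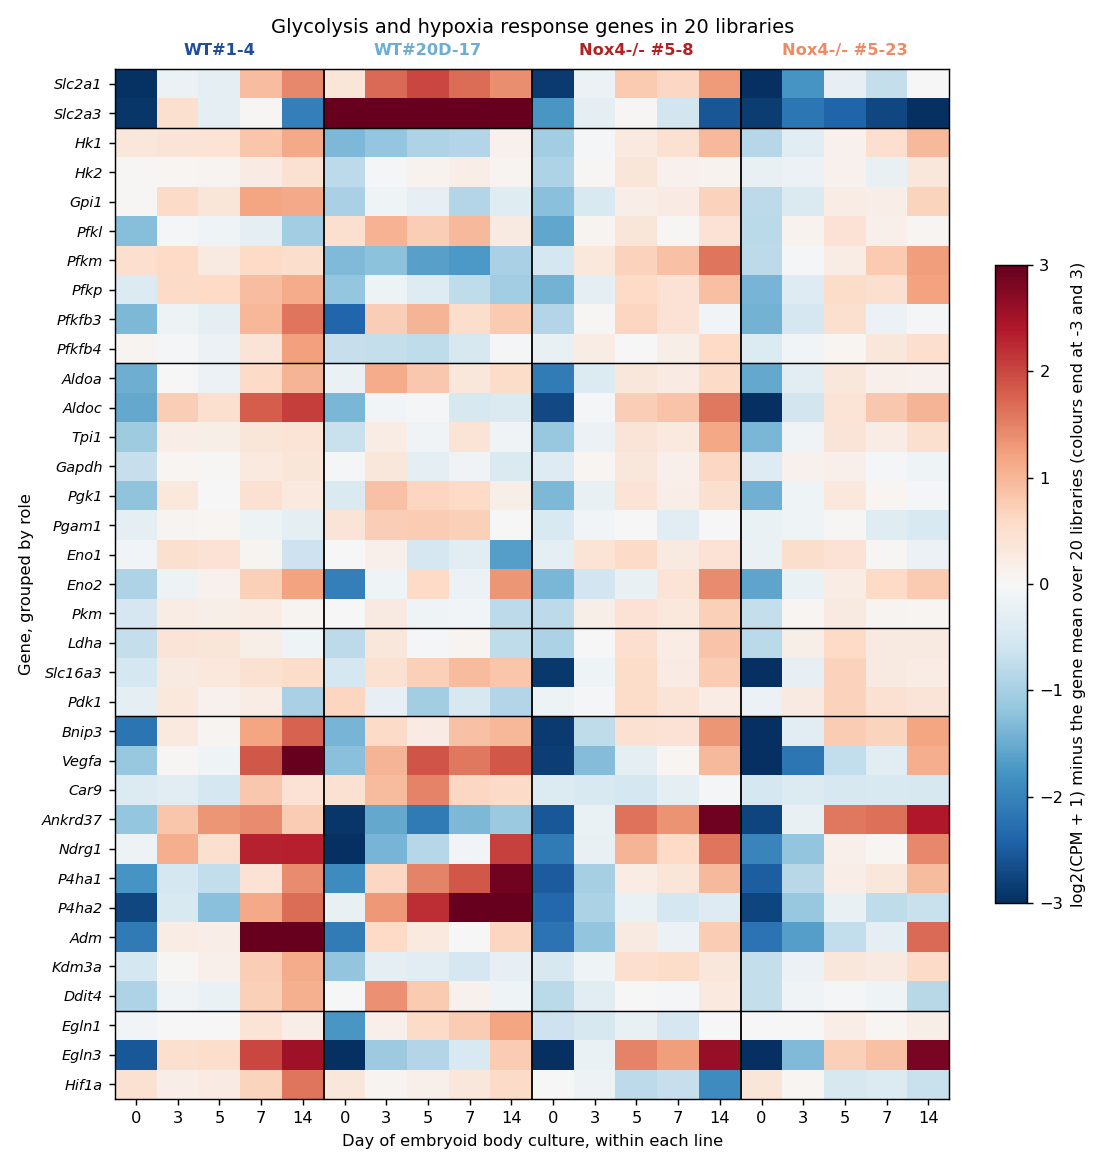
Heat map of 35 genes (rows, grouped by role) in 20 libraries (columns, 5 days in each of 4 lines), coloured by log2(CPM + 1) minus the mean of the gene over the 20 libraries. Day 0 is the bluest column of most lines, and Slc2a3 is darkest red in the 5 libraries of WT#20D-17.

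The rise was already visible on day 3 in single lines. Of the 34 members with a mean of at least 1 CPM, 31 were higher on day 3 than on day 0 in every line, against 15.7% of 14579 genes with such a mean. All 4 day 3 libraries lay above all 4 day 0 libraries for 16 of the 34 members and 1.81% of genes. On day 14, 25 of the 34 were above day 0 in every line (19.5% of genes), and for 17 the groups of libraries did not overlap (7.89%). Between day 7 and day 14, 0 members and 0.0108% of genes changed by edgeR's quasi-likelihood test. DESeq2 called 1 member between those days, Slc2a3, which was lower (log2 change -1.62), and 1.58% of its genes. An unadjusted p under 0.05 between those days was found for 9 members and 16.9% of genes.

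Within each line, the median log2(CPM + 1) change of the 35 members from day 0 to day 14 was 1.47 in WT#1-4, 0.75 in WT#20D-17, 1.99 in Nox4-/- #5-8 and 1.44 in Nox4-/- #5-23. The median over 14579 genes lay between -0.07 and 0.00 in the same 4 comparisons. More than 2-fold rises by day 14 were seen for 23, 14, 24 and 22 members in these lines, against 17.8%, 19.9%, 16.5% and 16.2% of genes. In WT#20D-17 the median of the members was highest on day 3, at 1.12, and in each of the other 3 lines it was highest on day 14.

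The counts depended on the lines included. Without WT#20D-17, 23 members passed across days (21 of them also with all lines), 7 passed on day 3 and 26 of 34 tested passed on day 14, where 23.4%, 0.523% and 34.3% of all genes changed in either direction. Without WT#1-4 the counts were 12, 1 and 21, beside 8%, 0.0616% and 18.1% of genes. Without Nox4-/- #5-8 they were 9, 0 and 18, beside 5.98%, 0.011% and 18.7%, and without Nox4-/- #5-23 they were 7, 0 and 18, beside 3.44%, 0% and 14.1%. The share of all genes that passed across days or on day 3 thus also changed with the lines included. The 5 days of a line are not independent cultures as far as the sources say, so the p-values measure only the spread between these libraries.

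**Figure D2:**
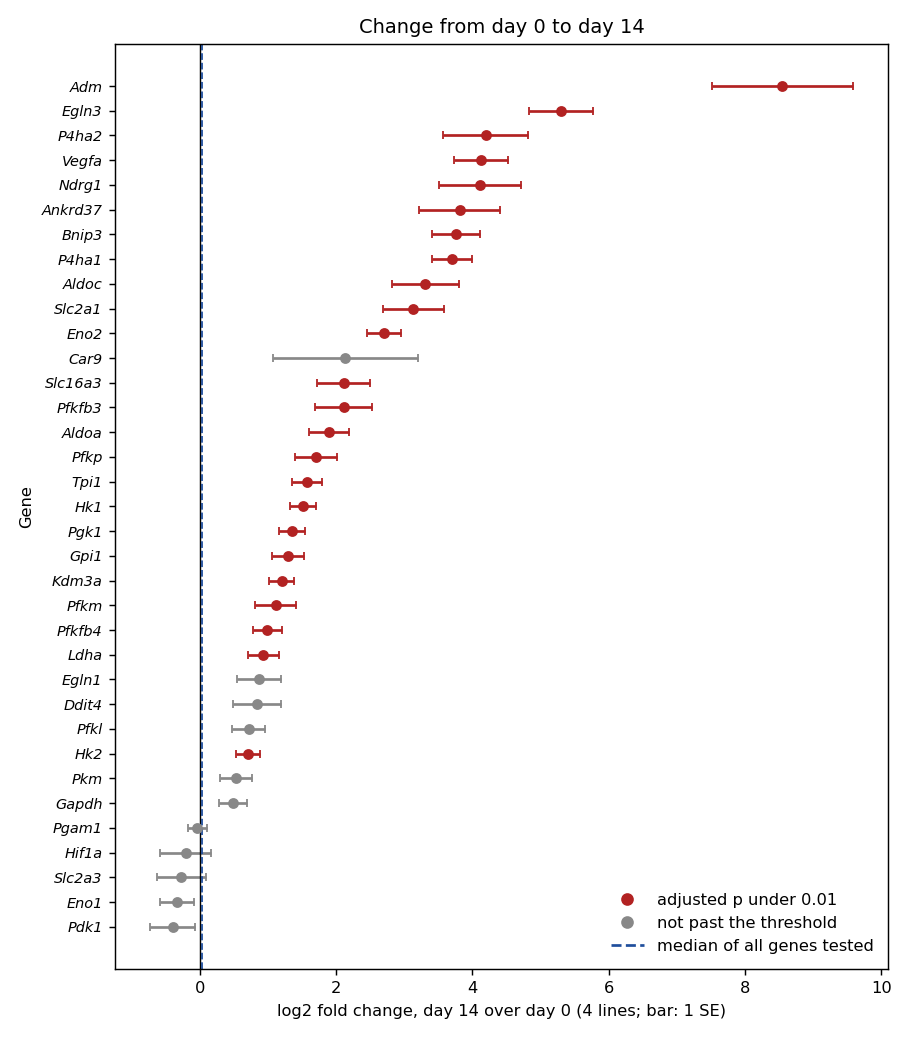
Log2 fold change of each of 35 genes from day 0 to day 14 in the fit over 4 lines (points, with bars of 1 standard error), with red for the 24 genes at an adjusted p under 0.01, grey for the 11 others and a dashed line at the median of all genes tested. Adm is farthest right at 8.55, and the 5 genes left of zero are all grey.

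Glucose uptake was represented by the carriers Slc2a1 (GLUT1), which is widespread, and Slc2a3 (GLUT3), which has a high affinity for glucose. Slc2a1 (ENSMUSG00000028645, chr4:119108711-119137983) had 50.3, 351, 329, 758 and 1078 CPM in WT#1-4 and 515, 1305, 1610, 1280 and 1050 CPM in WT#20D-17 on days 0, 3, 5, 7 and 14. It had 53.7, 356, 689, 617 and 965 CPM in Nox4-/- #5-8 and 49.0, 117, 336, 243 and 403 CPM in Nox4-/- #5-23. WT#20D-17 began above the day 14 level of Nox4-/- #5-23, so the day 0 and day 14 libraries overlapped through that line. The mean over lines was 167 ± 232 CPM on day 0 and 874 ± 318 CPM on day 14 (SD, n = 4 lines), a log2 fold change of 3.13 ± 0.45 (SE, adjusted p = 5.01e-05 by edgeR's quasi-likelihood test).

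Slc2a3 (ENSMUSG00000003153, chr6:122727809-122801640) went another way. It was at 1437, 5024, 5383, 4550 and 2182 CPM in WT#20D-17 and between 6.23 and 165 CPM in the other 15 libraries. Every line was higher on day 3 than on day 0, and every line was lower on day 14 than on day 7. On day 14 both WT lines lay above their own day 0 and both Nox4-/- lines below it. The change from day 0 to day 14 was -0.27 ± 0.36 on the log2 scale and did not pass the test (adjusted p = 0.576).

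Of the 8 genes of the hexose phosphate steps, 7 rose by day 14, with Pfkl as the exception (log2 fold change 0.72, adjusted p = 0.0259). Hk2 (ENSMUSG00000000628, chr6:82725025-82774454), the hexokinase of growing and muscle cells, had 205, 209, 212, 240 and 279 CPM in WT#1-4 and 117, 192, 216, 232 and 213 CPM in WT#20D-17. It had 106, 206, 260, 219 and 216 CPM in Nox4-/- #5-8 and 171, 178, 221, 174 and 257 CPM in Nox4-/- #5-23. Day 14 was above day 0 in each line and the 2 days did not overlap, but the change was small, at 0.71 ± 0.18 (adjusted p = 0.00428), and it was lost when any 1 of the 4 lines was left out (adjusted p of 0.0107 to 0.0214).

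Hk1, the widespread hexokinase, had a mean of 61.3 ± 37.2 CPM on day 0 and 165 ± 44.6 CPM on day 14, a log2 fold change of 1.52. Gpi1, which interconverts glucose and fructose phosphates, rose by 1.29 on that scale. Pfkfb3 and Pfkfb4 make fructose 2,6-bisphosphate, an activator of phosphofructokinase, and rose by 2.11 and 0.99. Among the phosphofructokinases, which commit sugar to glycolysis, Pfkp rose by 1.70 (adjusted p = 0.000432). The calls of Gpi1, Pfkp, Pfkm and Pfkfb4 were each lost without Nox4-/- #5-8 or Nox4-/- #5-23, with adjusted p between 0.0108 and 0.0909, and that of Pfkfb4 also without WT#1-4 (0.015). Exons of Pfkp share 748 bases with Pitrm1 on the other strand, and the sources do not say whether counting used the strand.

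Pfkm (ENSMUSG00000033065, chr15:98092589-98132451), the muscle type phosphofructokinase, had 117, 126, 99.2, 125 and 121 CPM in WT#1-4 and 32.2, 34.8, 26.0, 24.5 and 42.0 CPM in WT#20D-17. In Nox4-/- #5-8 it had 56.8, 103, 135, 152 and 256 CPM and in Nox4-/- #5-23 48.0, 79.7, 97.0, 143 and 199 CPM. The level of WT#1-4 hardly moved and WT#20D-17 was lowest on all 5 days, while both Nox4-/- lines were higher on each later day than on day 0. Over the 4 lines the change by day 14 was 1.11 ± 0.30 (adjusted p = 0.00648).

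In the steps from triose phosphates to pyruvate, 5 of 9 genes rose by day 14: Aldoa, Aldoc, Tpi1, Pgk1 and Eno2. The brain type isoenzymes rose most, Aldoc by 3.31 ± 0.49 and Eno2 by 2.70 ± 0.25, against 1.89 for Aldoa, 1.57 for Tpi1 and 1.35 for Pgk1. Eno2 went from 27.3 ± 9.10 CPM to 174 ± 31.7 CPM (SD, n = 4 lines) with no overlap between the days. Pgk1, which makes the first ATP of the pathway, was called from day 3 on (log2 fold change 1.29, adjusted p = 0.00552 by edgeR's quasi-likelihood test). Its day 3 call was lost without WT#1-4 or either Nox4-/- line. Gapdh, Pgam1, Eno1 and Pkm did not pass on day 14, with log2 changes of 0.49, -0.03, -0.33 and 0.53. Without WT#20D-17, Gapdh and Pkm passed (0.80 and 0.99 on the log2 scale), as did Pfkl (1.09).

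Gapdh (ENSMUSG00000057666, chr6:125161715-125166467), a common reference gene, had 2478, 4188, 4106, 4877 and 5147 CPM in WT#1-4 and 3870, 5051, 3321, 3705 and 2982 CPM in WT#20D-17. The Nox4-/- lines had 3076, 4150, 5032, 4465 and 6118 CPM (#5-8) and 3071, 4392, 4444, 3853 and 3663 CPM (#5-23). Every line was above its day 0 on day 3, and by day 14 only WT#20D-17 was below it. Eno1 shares near-identical sequence with Eno1b, whose counts came to 9.28% of those of Eno1, so the division of reads between them is uncertain.

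**Figure D3:**
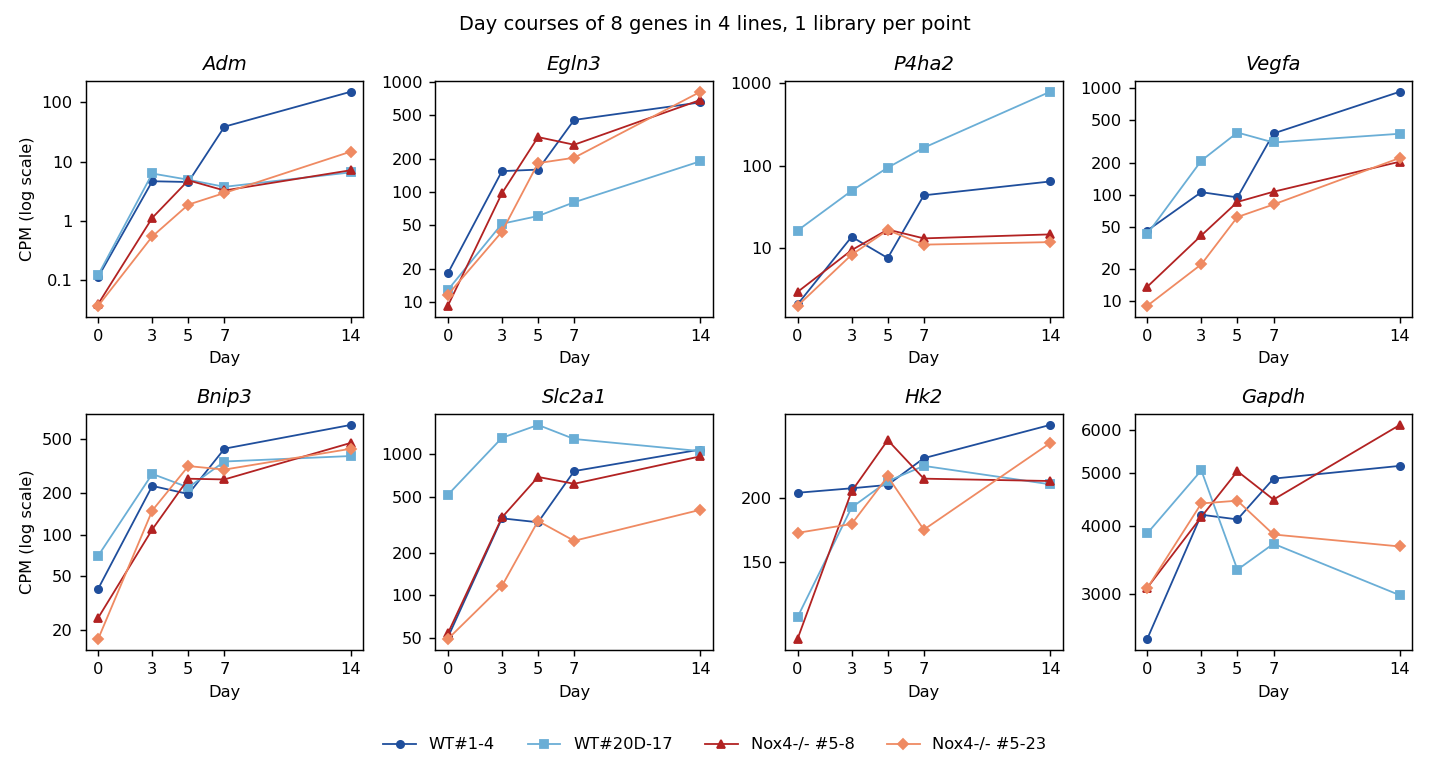
CPM on a log axis against day for 8 genes in 4 lines (1 library per point, lines by colour and marker). Adm, Egln3, P4ha2, Vegfa and Bnip3 end above day 0 in every line, Slc2a1 begins highest in WT#20D-17, and Hk2 and Gapdh span less than 3-fold.

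Of the 3 genes for the fate of pyruvate, Ldha and Slc16a3 rose and Pdk1 did not. Ldha, which makes lactate, went from 1027 ± 66.6 CPM to 2042 ± 951 CPM (log2 fold change 0.94 ± 0.22, adjusted p = 0.00319), a call lost without WT#1-4, Nox4-/- #5-8 or Nox4-/- #5-23 (adjusted p of 0.0181, 0.0378 and 0.0488). Slc16a3 (MCT4; ENSMUSG00000025161, chr11:120948480-120960868), the lactate exporter of glycolytic cells, had 151, 264, 272, 300 and 319 CPM in WT#1-4 and 152, 301, 356, 424 and 385 CPM in WT#20D-17. It had 28.6, 199, 320, 257 and 368 CPM in Nox4-/- #5-8 and 26.2, 184, 351, 262 and 255 CPM in Nox4-/- #5-23. The lines differed on day 0, when both Nox4-/- libraries were below 30 CPM and both WT libraries above 150 CPM, and by day 5 the WT and Nox4-/- libraries overlapped. The day 14 change over the 4 lines was 2.11 ± 0.39 (adjusted p = 0.000417).

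Pdk1 (ENSMUSG00000006494, chr2:71873224-71903858), a kinase that inhibits pyruvate dehydrogenase, had 148, 226, 197, 209 and 90.9 CPM in WT#1-4 and 281, 152, 87.6, 129 and 96.8 CPM in WT#20D-17. It had 161, 177, 266, 240 and 210 CPM in Nox4-/- #5-8 and 159, 217, 294, 246 and 237 CPM in Nox4-/- #5-23. WT#20D-17 was highest of all on day 0 and fell from there, WT#1-4 stayed up until day 7 and was at its lowest on day 14, and both Nox4-/- lines peaked on day 5. Across the lines the day 14 change was -0.40 ± 0.33 and did not pass (adjusted p = 0.353).

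Of the 10 hypoxia response genes, 8 rose by day 14, with a median log2 fold change of 3.79 over the 10, the largest of the 6 roles. Adm (adrenomedullin, a vessel dilating peptide; ENSMUSG00000030790, chr7:110627661-110629820) had 0.114, 4.69, 4.55, 39.0 and 151 CPM in WT#1-4 and 0.123, 6.33, 4.97, 3.77 and 6.61 CPM in WT#20D-17. It had 0.0399, 1.13, 4.86, 3.28 and 7.19 CPM in Nox4-/- #5-8 and 0.0372, 0.550, 1.89, 2.98 and 14.8 CPM in Nox4-/- #5-23. The 4 day 0 libraries held 3, 3, 1 and 1 counts, every later library was above them, and only WT#1-4 passed 15 CPM. The fitted log2 change of 8.55 ± 1.04 (adjusted p = 1.27e-05) depends on the prior count because day 0 was so low. As ratios of CPM, day 14 over day 0 was 1327 (454 to 6441) in WT#1-4, 53.8 (18 to 264) in WT#20D-17, 180 (31.8 to 7157) in Nox4-/- #5-8 and 398 (71.1 to 15765) in Nox4-/- #5-23, where the intervals are exact binomial ones at 95% and cover counting error only.

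Vegfa (ENSMUSG00000023951, chr17:46016993-46032369), the main growth factor for vessels, had 45.8, 105, 94.0, 376 and 928 CPM in WT#1-4 and 42.4, 208, 383, 309 and 373 CPM in WT#20D-17. It had 13.5, 41.2, 85.2, 106 and 204 CPM in Nox4-/- #5-8 and 8.96, 22.0, 61.4, 80.6 and 221 CPM in Nox4-/- #5-23. All 4 day 14 libraries were above all day 0 libraries, and on each day both WT lines were above both Nox4-/- lines. The log2 change by day 14 was 4.12 ± 0.40 (adjusted p = 2.89e-06 by edgeR's quasi-likelihood test).

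Bnip3 (ENSMUSG00000078566, chr7:138890836-138909519), which directs mitochondria to autophagy, had 40.2, 227, 198, 425 and 633 CPM in WT#1-4 and 70.0, 278, 221, 342 and 375 CPM in WT#20D-17. It had 24.7, 109, 256, 253 and 468 CPM in Nox4-/- #5-8 and 17.3, 150, 317, 299 and 424 CPM in Nox4-/- #5-23. The 4 lines lay between 375 and 633 CPM on day 14 and no day 14 library overlapped day 0. The rise was 2.33 ± 0.33 by day 3 (adjusted p = 0.00401) and 3.76 ± 0.35 by day 14 (adjusted p = 2.02e-06). The day 3 call was lost without WT#1-4 or either Nox4-/- line. Exons of Bnip3 share 504 bases with the antisense gene Gm45507, which had at most 119 counts.

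Ankrd37 (ENSMUSG00000050914, chr8:45996902-46005707), an ankyrin repeat gene known as a HIF target, had 15.5, 64.9, 91.9, 97.1 and 61.6 CPM in WT#1-4 and 3.85, 11.8, 7.54, 13.5 and 16.1 CPM in WT#20D-17. It had 5.35, 31.3, 114, 93.6 and 280 CPM in Nox4-/- #5-8 and 4.46, 30.7, 110, 116 and 194 CPM in Nox4-/- #5-23. WT#20D-17 stayed lowest throughout, WT#1-4 was highest on days 0 and 3, and both Nox4-/- lines were highest on day 14. The day 14 change was 3.81 ± 0.60 (adjusted p = 0.000114). Its exons share 349 bases with Lrp2bp and 57 bases with Ufsp2, both on the other strand. Lrp2bp had at most 79 counts and Ufsp2 473 to 914, against a lowest value of 94 for Ankrd37, so that without use of the strand some of its reads could not be told apart from theirs.

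P4ha1 and P4ha2, alpha subunits of the collagen prolyl 4-hydroxylase, both rose. P4ha2 (ENSMUSG00000018906, chr11:54100095-54131665) had 2.09, 13.8, 7.61, 43.7 and 64.2 CPM in WT#1-4 and 16.4, 49.5, 94.4, 164 and 781 CPM in WT#20D-17. It had 2.95, 9.48, 16.8, 13.2 and 14.7 CPM in Nox4-/- #5-8 and 2.01, 8.34, 16.6, 11.1 and 11.9 CPM in Nox4-/- #5-23. WT#20D-17 was highest on all 5 days, and its day 0 was above day 14 of both Nox4-/- lines. The log2 change was 4.20 ± 0.63 (adjusted p = 7.44e-05), and P4ha1 rose by 3.71 ± 0.29 with the same order of lines on day 14, 1244 CPM in WT#20D-17 against 441, 328 and 319 CPM. The fibroblast markers given above, collagens among them, were also highest in WT#20D-17 on day 14, and their part in these 2 genes was not tested.

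Of the remaining hypoxia genes, Ndrg1, a stress induced gene of differentiating cells, rose by 4.11 ± 0.60, and Kdm3a, a histone demethylase that needs oxygen, by 1.20 ± 0.18. Ddit4, an inhibitor of mTOR signaling, had a change of 0.84 that did not pass (adjusted p = 0.0621), and its highest library was day 3 of WT#20D-17 with 371 CPM. Car9, a carbonic anhydrase often taken as a marker of hypoxic cells, lay between 0 and 3.05 CPM over the 20 libraries with a mean of 0.59 CPM, and its change did not pass either (adjusted p = 0.116).

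Of the 3 oxygen sensing genes, Egln3 rose and Egln1 and Hif1a did not pass. Egln3 (ENSMUSG00000035105, chr12:54178981-54203860), the prolyl hydroxylase that is itself a known HIF target, had 18.3, 155, 160, 452 and 653 CPM in WT#1-4 and 12.9, 51.6, 60.6, 80.8 and 191 CPM in WT#20D-17. It had 9.26, 97.7, 316, 269 and 687 CPM in Nox4-/- #5-8 and 11.7, 43.7, 183, 205 and 815 CPM in Nox4-/- #5-23. All lines climbed from below 20 CPM, and WT#20D-17 ended lowest. The mean went from 13.0 ± 3.81 CPM on day 0 to 586 ± 273 CPM on day 14 (SD, n = 4 lines). By edgeR's quasi-likelihood test the log2 change was 2.51 ± 0.42 by day 3 (adjusted p = 0.00924) and 5.29 ± 0.47 by day 14 (adjusted p = 1.37e-06). The day 3 call was lost with upper quartile scaling, and without WT#1-4 or either Nox4-/- line. Egln1, the main HIF prolyl hydroxylase, changed by 0.87 ± 0.32 (adjusted p = 0.0387), most of it in WT#20D-17, where it went from 22.7 to 181 CPM.

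Hif1a (ENSMUSG00000021109, chr12:73901375-73947530), the oxygen regulated alpha subunit itself, had 147, 124, 127, 171 and 327 CPM in WT#1-4 and 136, 113, 120, 136 and 160 CPM in WT#20D-17. It had 109, 96.8, 62.0, 66.6 and 28.3 CPM in Nox4-/- #5-8 and 138, 112, 76.1, 79.9 and 66.9 CPM in Nox4-/- #5-23. The 4 lines were close on days 0 and 3 and parted from day 5, with both WT lines above both Nox4-/- lines on days 5, 7 and 14. Over the 4 lines together the change by day 14 was -0.20 ± 0.37 (adjusted p = 0.688). The antisense gene Gm15283, with 4 to 144 counts, shares 330 exon bases with Hif1a.

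The 24 genes that rose by day 14 did not share 1 course. By day 3, Ldha and Pgk1 had reached 109% and 95.4% of their day 14 log2 change, and Slc16a3 and Aldoa 73.7% and 71.5%. Vegfa and Ndrg1 had reached 39% and 38.9%, Hk1 24.8% and Pfkfb4 15%. The median by day 3 was 67% for the 5 genes of the triose steps, 47.6% for the 7 of the hexose steps and 47.7% for the 8 hypoxia response genes, and by day 7 it was 84.4%, 70.9% and 77.3%. These shares describe fitted values and were not tested against each other.

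The shares of isoenzymes within families were compared by line and day, without a test. Levels were compared per kilobase of exon, as CPM per kb. Egln3 made up 24.7%, 43.5%, 19.7% and 16.8% of the sum of Egln1 and Egln3 on day 0 in WT#1-4, WT#20D-17, Nox4-/- #5-8 and Nox4-/- #5-23, and 90.6%, 58.7%, 92.2% and 92.5% on day 14. The share of Eno2 in the sum of Eno1 and Eno2 was between 0.90% and 2.16% on day 0 and between 7.16% and 24.1% on day 14. Both shares were higher on day 14 in each of the 4 lines. Slc2a3 was 50.1% of the sum of Slc2a1 and Slc2a3 on day 14 in WT#20D-17 and at most 1.23% in the other lines. The share of P4ha2 in the P4ha sum on day 14 was 29.3% in WT#20D-17, 8.75% in WT#1-4, and 2.87% and 2.39% in the Nox4-/- lines. On day 0 these shares were 19.7%, 2.8%, 6.4% and 4.37%, so the share rose in both WT lines and fell in both Nox4-/- lines. Other families moved less evenly. The share of Pfkfb3 in the sum of Pfkfb3 and Pfkfb4 rose by day 14 in every line but Nox4-/- #5-8, where it went from 76.1% to 74.8%. In WT#20D-17 the Aldoc share of the aldolases hardly moved, from 1.72% to 2%. The share of Hk2 in the sum of Hk1 and Hk2 was lower on day 14 than on day 0 in each line, at 66.4% against 71.6% in WT#1-4, 75.3% against 82.6% in WT#20D-17, 63.4% against 77.6% in Nox4-/- #5-8 and 67.2% against 83.1% in Nox4-/- #5-23.

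**Figure D4:**
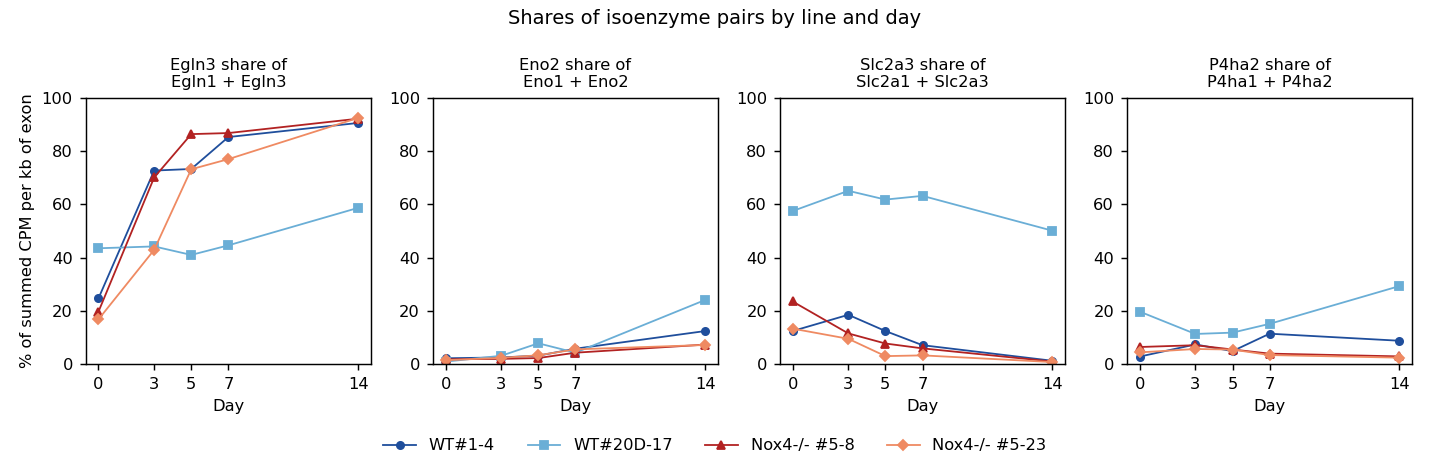
Share of 1 isoenzyme or carrier in the summed CPM per kb of exon of its pair (vertical axis, percent) against day, for 4 pairs in 4 lines with 1 library per point. Egln3 passes 90% in every line but WT#20D-17, the Eno2 share is highest on day 14 in every line, and the Slc2a3 share stays above 50% in WT#20D-17.

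Lines of the same genotype were compared as well. Between the 2 WT lines, taken over all days in the fit with line and day, 15 of the 35 members differed by edgeR's quasi-likelihood test: 6 were higher in WT#20D-17, where 20.6% of all genes were, and 9 were lower, where 19.1% were. The days of a line stood in for repeats here, and the share of members that differed was near that of all genes. Slc2a3 was higher by 5.65 ± 0.38 on the log2 scale (adjusted p = 5.18e-09), P4ha2 by 2.73 and Slc2a1 by 1.66. Pfkl, P4ha1 and Pgam1 were the other 3 higher members. Among the lower members the log2 difference was -2.60 for Ankrd37, -2.22 for Ndrg1, -1.95 for Pfkm, -1.56 for Egln3 and -1.54 for Hk1, and Gpi1, Pfkp, Pfkfb4 and Kdm3a were also lower. Markers of other cell types differed between the same lines. In WT#20D-17 all 4 visceral endoderm (median log2 difference 10.5) and all 4 cardiac muscle markers (4.86) were higher, and 3 of 4 neural markers were lower (-3.95). Of the 6 pluripotency markers 5 were higher and 1 lower (7.43), and of the 8 fibroblast markers 3 were higher and 1 lower (3.48). Of the 4 endothelial markers 1 was higher and 2 lower (-1.20), and of 3 primitive blood markers tested 1 was higher (1.76). Their part was not tested. Between the 2 Nox4-/- lines, 1 member differed, Slc2a3, lower in #5-23 with a log2 difference of -1.81 ± 0.33 (adjusted p = 0.00243), where 1.54% of all genes were lower.

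The comparison of genotypes asked whether loss of Nox4 changes these genes. The days were pooled, as the study did. WT#1-4 (5 libraries) was compared with both Nox4-/- lines (10 libraries) by edgeR's exact test. Of the 35 members 1 passed, Hif1a, where 5.62% of 33860 genes did and 3.97% were lower. Hif1a was lower in the Nox4-/- libraries, with a log2 difference of -1.10 (adjusted p = 0.00428). Its Nox4-/- libraries lay between 28.3 and 138 CPM and its WT#1-4 libraries between 124 and 327 CPM, so the ranges overlapped, while on each of the 5 days WT#1-4 was above both Nox4-/- lines. Adm and Vegfa followed with -3.44 and -1.88 and did not pass (adjusted p = 0.0154 and 0.0515). An unadjusted p under 0.05 was found for 7 of the 35 members and 16.8% of all genes. Markers of other cell types moved in the same comparison. Of the 8 fibroblast markers 6 were lower in Nox4-/- (median log2 difference -3.02), with sums of 185 to 406 CPM in WT#1-4 and 19.6 to 73.1 CPM in the Nox4-/- libraries. Of the 4 endothelial markers 2 were lower (median -1.43), with sums of 282 to 439 CPM against 115 to 271 CPM, and of the 6 pluripotency markers 1 was higher (median -0.04). Of the 4 cardiac muscle (median -4.37), 4 visceral endoderm (-3.48), 4 neural (0.52) and 5 primitive blood markers (0), 1 each was lower. The part of these cell types in the differences of the members was not tested.

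In this pooling each day of a line counts as a repeat, the matching of libraries by day is not used, and only 1 WT line is included. With day as a term in edgeR's quasi-likelihood test, 7 members were called against WT#1-4, all lower in Nox4-/-, where 8.81% of genes were called: Hk1, Gpi1, Aldoc, Vegfa, Ndrg1, Adm and Hif1a. Against WT#20D-17, by the exact test with days pooled, 4 of these 7 had the opposite sign and did not pass: Hk1 at 0.99, Gpi1 at 0.52, Aldoc at 0.86 and Ndrg1 at 0.13. Adm had a log2 difference of -2.77 against WT#1-4 with day as a term (adjusted p = 2.04e-08), of -0.25 against WT#20D-17 (adjusted p = 0.95 by the exact test) and of -2.35 with lines as units (adjusted p = 0.615 by the quasi-likelihood test). Vegfa was at -1.71 with day as a term (adjusted p = 9.84e-10), at -1.64 against WT#20D-17 (adjusted p = 0.0181 by the exact test), at -1.76 against both WT lines (adjusted p = 0.0152 by the same test) and at -1.65 with lines as units (adjusted p = 0.604 by the quasi-likelihood test). The call of Hif1a was lost without Nox4-/- #5-8 (log2 difference -0.89, adjusted p = 0.0628) and without Nox4-/- #5-23 (-1.31, adjusted p = 0.0131), and Slc2a3 was called in its place without Nox4-/- #5-8 (-2.28, adjusted p = 0.00281). The call of Hif1a was also lost without day 5, 7 or 14 (adjusted p of 0.0292, 0.0662 and 0.0637), and with lines as units, 2 against 2, the difference was -0.83 (adjusted p = 0.604 by edgeR's quasi-likelihood test). Against both WT lines together Hif1a passed (-0.90, adjusted p = 0.00336 by the exact test), as did Slc2a3, Car9 and P4ha2, all lower, where 12.1% of genes were called. Against WT#20D-17 in place of WT#1-4, Hif1a differed by -0.67 (adjusted p = 0.0368), and 8 other members passed, against 25.8% of genes: Slc2a1, Slc2a3, Pgam1, Car9, P4ha2 and Ddit4 were lower in Nox4-/- and Pfkm and Ankrd37 higher. For Slc2a3 the log2 difference was -6.43 there and -0.97 against WT#1-4, the latter with an adjusted p of 0.45. The 2 comparisons share the Nox4-/- libraries.

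Whether the day course itself differed between genotypes was asked of all 20 libraries, with terms for genotype by day. No member passed, where 0.0104% of 19240 genes did, by edgeR's quasi-likelihood test. An unadjusted p under 0.05 was found for 15 of the 35 members and 7.23% of all genes, and DESeq2 called 5 members, Pfkm, Slc16a3, Ankrd37, P4ha2 and Hif1a, and 1.27% of its genes. The smallest adjusted p over all days were those of Slc16a3 (0.0403), Ankrd37 (0.135) and Pfkm (0.21). For these the rise from day 0 to day 14 was larger in the Nox4-/- lines, by 2.23 ± 0.28, 3.48 ± 0.49 and 1.83 ± 0.29 on the log2 scale (SE; adjusted p = 0.0121, 0.0166 and 0.0283 for the day 14 term alone, which was added after the data were seen and called no member). For Hif1a the difference was -2.23 ± 0.41 (adjusted p = 0.057 for that term) and for P4ha2 -2.93 ± 0.58 (adjusted p = 0.0635). Without WT#1-4 the WT side held 1 library per day, all of WT#20D-17. The spread then came from the Nox4-/- lines alone, so no calls are given for that fit.

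**Figure D5:**
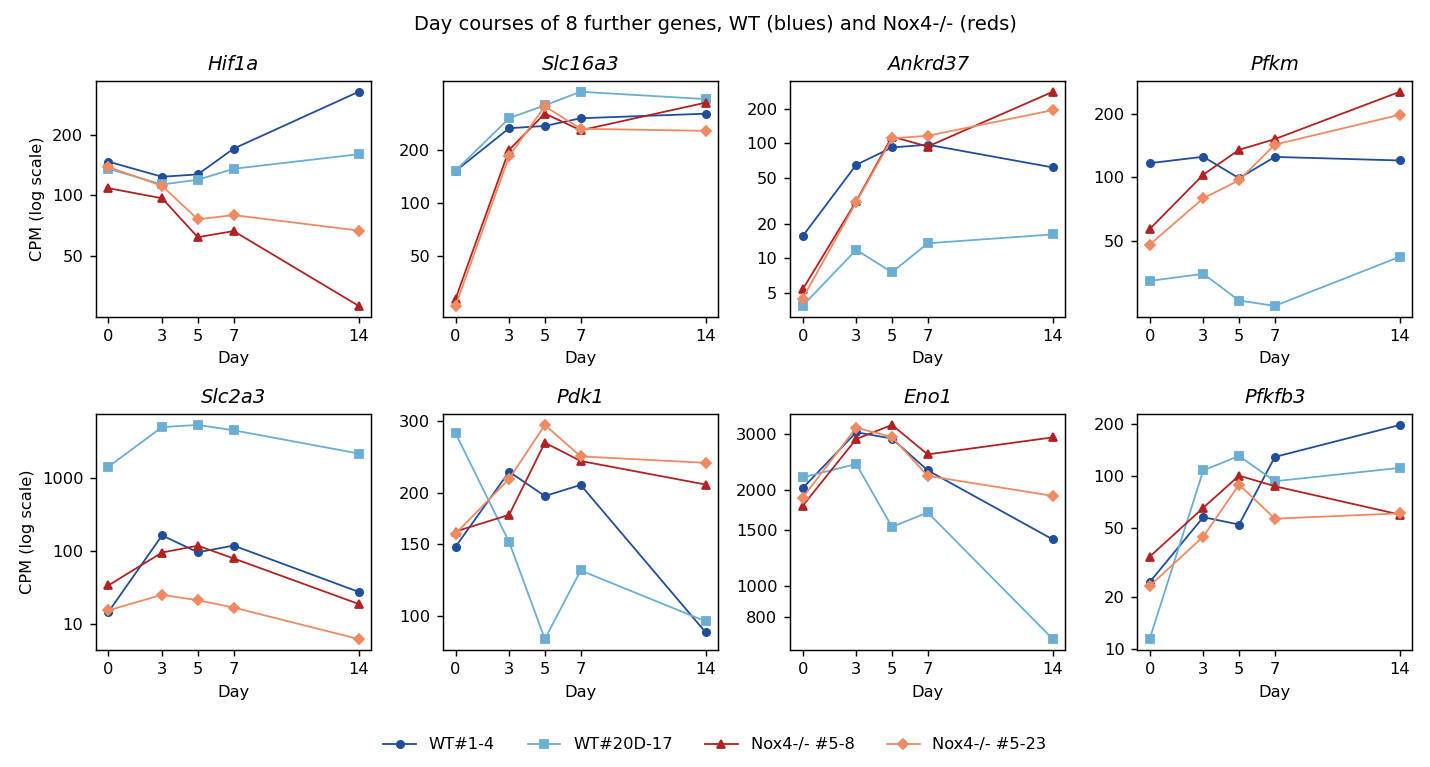
CPM on a log axis against day for 8 genes in 4 lines (1 library per point), blues for WT and reds for Nox4-/-. Hif1a parts by genotype from day 5, Slc16a3 starts below 30 CPM in both Nox4-/- lines, Pfkm rises in both Nox4-/- lines, and Slc2a3 stands apart in WT#20D-17.

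Other genes of the same pathways were counted from lists written by name, also with earlier results of these data known. Of 35 other known HIF targets, 34 were tested and 22 passed on day 14, 21 higher and 1 lower, with a median log2 fold change of 1.30, where 14.3% of all genes were higher and 13.5% lower, with a median of 0.04. The largest rises were those of Lox and Loxl2, which cross-link collagen (5.68 and 5.29), and Ppp1r3c, which promotes glycogen storage (4.22), and the lower gene was Tfrc, the transferrin receptor (-1.33). Within the HIF pathway, 4 of 13 genes passed, 3 higher and 1 lower, with a median of 0.03, a share near the 27.8% of all genes that passed. Hif3a and Epas1 (HIF2A), further alpha subunits, rose by 4.35 and 3.74, Vhl, which recognises the hydroxylated subunits, by 1.12, and Cul2, its partner, changed by -0.55. Arnt did not pass (0.18, adjusted p = 0.492).

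Of 23 tested isoenzymes of glycolysis outside the 35, 4 were higher and 1 lower on day 14, with a median of 0.55, where 14.3% of all genes were higher and 13.5% lower. Among the higher ones were Slc2a10 (3.41), Hkdc1 (2.97) and Pgm1, which links glycogen to glucose 6-phosphate (1.64), and the lower one was Tigar (-1.06), which drains fructose 2,6-bisphosphate. Of 13 genes for the uptake and use of pyruvate in mitochondria, Mpc1 (1.89), a subunit of the pyruvate carrier, and Pdk2 (1.88) rose. Pdhx (-1.11), Dlat (-0.68) and Dld (-0.50), subunits of pyruvate dehydrogenase, fell, and the median over the list was -0.003. Against the same shares of all genes, the counts of these 2 lists set neither apart. In the pentose phosphate pathway 2 of 7 tested genes passed, a share near the 27.8% of all genes. Both were lower, Pgd (-0.70) and G6pdx (-0.65), the enzymes that make NADPH, and the median of the list was -0.39. Among 10 stress response genes 5 rose, most of all Atf3 (3.41), Txnip (2.52) and Ddit3 (2.51), and Sesn2 fell (-1.17). The median of that list was 1.16, and 14.3% of all genes were higher and 13.5% lower. Of 12 reference genes outside the 35, 4 passed, a share near the 27.8% of all genes, and all 4 were lower: Polr2a (-1.04), Hprt (-0.97), Tbp (-0.61) and Sdha (-0.42). All values are log2 fold changes of day 14 over day 0 in the fit over 4 lines, and those of Hkdc1, Lox and Ppp1r3c, which were at 0 in at least 1 library, depend on the prior count.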

How the data were processed

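Per the labels and the methods of the study, stranded mRNA libraries were aligned with STAR 2.6.0c to the mouse genome and quantified with RSEM 1.3.1. The deposited table holds the authors' expected counts per gene, neither normalized nor filtered, with a median of 23878854 per library, and 3 counts correspond to 0.108 to 0.148 CPM. Whether RSEM used the strand is not given in the sources used here. Expected counts were rounded to whole numbers. CPM, with trimmed mean of M values scaling, and all tests were computed here in R 4.3.3.

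The day course was fitted with edgeR 4.0.16 (quasi-likelihood test, terms for line and day, filter on low counts by its filterByExpr function) over 18474 genes. The interaction added genotype by day (19240 genes). Genotype with days pooled used edgeR's exact test without a filter, on 33860 genes. P-values were adjusted by the method of Benjamini and Hochberg over all genes tested, with a threshold of 0.01. DESeq2 1.42.0, limma 3.58.1 (voom), other scalings, thresholds and filters, fits without the line term and fits leaving out a line or day served as alternatives. The line term acts as a replicate block: libraries of 1 line share a cell line, and their deviations from the day means correlated with a mean r of 0.659, 0.822, 0.673 and 0.753 in the 4 lines. The model fits were also run on simulated counts without differences between lines. That cannot check the genotype test with days pooled, where libraries of 1 line correlate. The columns of each library were matched to the labels by name.

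The 35 genes and the other lists were chosen with earlier results of these data known. Values in every library are given for Hif1a, Slc2a1, Hk2, Gapdh, Pdk1, Bnip3, Vegfa and Egln3, for the 4 members with the largest called rise by day 14 (and fall, of which there was none), and for the 3 with the smallest adjusted p in the genotype and interaction tests. From each pathway, target, stress and reference gene list the 3 largest called changes, or all where fewer passed, are named, except for 1 gene that is not reported here, and cell type markers are given by sums and counts. Members with a mean under 1 CPM are given by range. Coordinates of genes are those of GENCODE vM21 (GRCm38), and promoters come from RefSeq (GRCm38.p6).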

Additional observations from a re-analysis of the deposited data

Results flagged for a closer look

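Of the 35 genes, 4 moved in opposite directions in the 2 WT and the 2 Nox4-/- lines between day 0 and day 14, as did 7.22% of 14579 genes with a mean of at least 1 CPM. Opposite signs are a description and not a test of the difference, and the day 14 interaction term of edgeR's quasi-likelihood test passed for none of the 4. Changes are given on the log2(CPM + 1) scale in the order WT#1-4, WT#20D-17, Nox4-/- #5-8 and Nox4-/- #5-23, and the term is the fitted log2 change in Nox4-/- minus that in WT.

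Slc2a3 changed by 0.87, 0.60, -0.82 and -1.19, with a term of -1.89 (adjusted p = 0.123). Hif1a changed by 1.15, 0.24, -1.90 and -1.04, with a term of -2.23 (adjusted p = 0.057). Eno1 changed by -0.53, -1.68, 0.71 and 0.02, with a term of 1.44 (adjusted p = 0.109), and its day 14 value in Nox4-/- #5-23 was almost that of day 0. Pdk1 changed by -0.69, -1.53, 0.38 and 0.58, with a term of 1.65 (adjusted p = 0.136). The summed pluripotency markers went from 5794 to 1279 CPM and from 2778 to 77.7 CPM in the WT lines over these days. In the Nox4-/- lines they went from 3236 to 1971 CPM and from 4596 to 3815 CPM. Pou5f1, whose reads cannot be separated from retroviral Oct4, was the highest of the 6 markers in these sums. Taken singly, 5 of the 6 were higher in WT#20D-17 than in WT#1-4 over all days and 1 was lower. The part of these markers in the 4 genes was not tested.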

How the results depend on the processing

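The count of 24 members higher on day 14 stayed within 16 to 26 under all alternatives run. It was 16 without the replicate block of line, where Slc2a1 (log2 change 2.42, adjusted p = 0.0591), Hk1, Hk2, Gpi1, Pfkm, Pfkfb4, Ndrg1 and P4ha2 did not pass. The count across days was 7 without the block and 7 to 23 with 1 line left out. On day 3 it was 0 without the block, 11 without the filter on low counts (0.274% of all genes), 15 by DESeq2 (0.815%), 11 at an adjusted p under 0.05 (0.644%) and 0 to 7 with 1 line left out, against 4 and 0.162% as reported. By DESeq2 the median over its 19286 genes was 0.29 on day 14, against 0.04 over the 18474 genes of the edgeR fit and 0.09 there with RLE scaling, and the cause was not tested. DESeq2 called 1 member between days 7 and 14. The shares of all genes with 1 line left out are given above. For the fit without the block no such share is given, so its counts do not show whether members lost more calls than other genes.

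For genotype with days pooled the count was 1. It was 0 by the quasi-likelihood test, 7 by that test with day as a term (Hk1, Gpi1, Aldoc, Vegfa, Ndrg1, Adm and Hif1a, all lower than in WT#1-4, of which Hk1, Gpi1, Aldoc and Ndrg1 had the opposite sign against WT#20D-17), 0 and 2 at adjusted p under 0.001 and 0.05 (3.61% and 8.2% of all genes), 8 against WT#20D-17 (25.8%), 4 against both WT lines (12.1%), 0 with lines as units (0%), 0 to 1 without a Nox4-/- line, 2 without day 0 (5.27%) and 0 without day 5, 7 or 14 (3.29% to 5.48%), where 5.62% of genes were called as reported. For the interaction, with 0 members, the count was 5 by DESeq2 (1.27% of its genes) and 2 without the filter (0.0327%). It was 1 at an adjusted p under 0.05 (Slc16a3, 0.026%). With 1 line left out, 1 genotype held 1 library per day, and no count is given. The replicate block changed no call there. Counts between lines did not move.

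Of 5 genes whose day 14 change turned sign, none was past the threshold either way. Pgam1 was at 0.012 with upper quartile scaling, at 0.018 by DESeq2 and at 0.018 with RLE scaling. Slc2a3 was at 0.59 without the block and at 0.13 by limma-voom, and Hif1a at 0.17 without the block. With 1 line left out, Pgam1 ranged from -0.19 to 0.10, Slc2a3 ranged from -0.59 to 0.18, Hif1a ranged from -0.82 to 0.22, Eno1 ranged from -0.71 to 0.12 and Pdk1 ranged from -0.72 to 0.17. Of the single gene values for day 14 under alternatives, 376 kept direction and side of the threshold, 24 lost it and 6 gained it. For genotype these numbers were 41, 9 and 4. The cause of these shifts was not tested.

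There was 1 library per line and day and 2 clonal lines per genotype, and line and genotype cannot be told apart where 1 WT line is used. Oxygen, protein levels and cell composition were not measured, and Adm and Car9 rest on few counts on day 0.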

Other observations

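Gapdh, often used as a reference gene, did not pass on day 14 (adjusted p = 0.0619 by edgeR's quasi-likelihood test). It spanned 2478 to 6118 CPM over the 20 libraries, and its change by day 14 differed in sign between WT#20D-17 and the other 3 lines. Of 12 other reference genes, the median log2 change by day 14 was -0.31, against 0.04 for all genes tested. On day 14 4 of the 12 passed, beside 27.8% of all genes, and across days 0 of 12 passed by the same test, beside 17.3% of all genes, with an unadjusted p under 0.05 for 5.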
